A study of Mus musculus with 40 samples.

Results

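The 8 mitochondrial rRNA and complex III to V transcripts were followed in the brains of mice colonized with the gut microbiota of people treated with a ketogenic diet (KD). They were the small and large ribosomal RNAs mt-Rnr1 and mt-Rnr2, the complex III mRNA mt-Cytb, the complex IV mRNAs mt-Co1, mt-Co2 and mt-Co3, and the complex V mRNAs mt-Atp6 and mt-Atp8. They were listed by name, with earlier results of these data known, as 8 of 37 mitochondrially encoded genes and of 47643 gene identifiers in each count table. Among them, mt-Rnr2 had been selected on its measured post-KD change in the 2 regions, so that change is given below as values without a test. The study comprised 40 RNA-seq libraries from 20 cohorts, with hippocampus and frontal cortex sequenced for each cohort. Every cohort consisted of wild-type, female, juvenile Swiss Webster mice that had been raised germ-free, on the same control diet. Each of 10 donors gave 1 stool sample before the diet, used for a pre-KD cohort, and 1 on the diet, used for a post-KD cohort. Each library was made from a pool of the mice of 1 cohort, so there are 10 libraries per region and condition, the replicate is the cohort, and differences between mice of a pool are not seen. The recipients themselves ate no ketogenic diet.

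The mitochondrial chromosome is transcribed from both strands into long precursors, from which rRNAs, tRNAs and mRNAs are cut out. Both rRNAs are made from the same start region and build the mitochondrial ribosome, which translates the mRNAs of the respiratory chain inside the organelle. Complex III passes electrons to cytochrome c, complex IV passes them to oxygen, and complex V makes ATP. In neurons these complexes supply most of the ATP for ion pumping and synaptic transmission. The remaining subunits of each complex are encoded in the nucleus.

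Of the 8 transcripts, 4 carried nearly all the counts and 4 carried almost none, and the sequences of the latter are shown first, beside the copies that 3 of them have in the nuclear genome. All 8 genes lie on the plus strand of the mitochondrial chromosome (mm10, the same assembly as GRCm38, with GENCODE M21 annotation) and have a single exon. mt-Rnr1 lies at chrM:70-1024, mt-Rnr2 at chrM:1094-2675, mt-Co1 at chrM:5328-6872, mt-Co2 at chrM:7013-7696, mt-Atp8 at chrM:7766-7969, mt-Atp6 at chrM:7927-8607, mt-Co3 at chrM:8607-9390 and mt-Cytb at chrM:14145-15288. A stretch of chromosome 1 carries annotated pseudogenes that repeat the middle of this row of genes, from the last part of mt-Co1 into mt-Nd4, whose first 876 bases are copied. The first 681 bases of mt-Co2 were identical at all 681 positions to Gm28661 (chr1:24614885-24615565, minus strand). The same held for 678 of 678 bases of mt-Atp6 and Gm10925 (chr1:24613974-24614651) and for 783 of 783 bases of mt-Co3 and Gm28437 (chr1:24613189-24613971). The last 483 bases of mt-Co1 matched Gm29216 (chr1:24615706-24616197) at 482 positions. The last 43 bases of mt-Atp8 are also the first bases of mt-Atp6, in another reading frame, and of Gm10925. In the sequences below, from GENCODE M21 transcripts and written 5′ to 3′, capitals mark these 43 bases in the whole of mt-Atp8 (chrM:7766-7969, plus strand) and in the first 69 bases of the chromosome 1 copy (chr1:24614583-24614651, minus strand).
mt-Atp8: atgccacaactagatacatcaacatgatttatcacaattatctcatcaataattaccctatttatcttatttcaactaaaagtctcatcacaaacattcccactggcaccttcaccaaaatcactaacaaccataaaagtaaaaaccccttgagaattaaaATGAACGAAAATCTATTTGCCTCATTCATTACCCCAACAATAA
Gm10925: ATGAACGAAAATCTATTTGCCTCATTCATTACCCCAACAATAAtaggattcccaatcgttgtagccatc

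The next pair shows the end of mt-Co3 (chrM:9322-9390, plus strand) and of its copy (chr1:24613189-24613256, minus strand). It is shown because the annotated copy covers all of the gene but its end. The gene's last base, in capitals, is the single base of the gene beyond the annotated copy. The chromosome 1 base next to that copy was not examined.
mt-Co3: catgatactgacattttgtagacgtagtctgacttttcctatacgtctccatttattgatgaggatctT
Gm28437: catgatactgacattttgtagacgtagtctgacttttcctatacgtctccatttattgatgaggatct

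The last pair shows the start of the copied part of mt-Co1 (chrM:6390-6427, plus strand) and its copy (chr1:24616151-24616188, minus strand), where the single mismatch, in capitals, is A1066T (mt-Co1 base first, counted from 1 at the 5′ end of the gene).
mt-Co1: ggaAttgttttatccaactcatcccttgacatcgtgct
Gm29216: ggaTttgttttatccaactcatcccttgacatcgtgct

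The sequences were read in windows of 69 bases, the read length given in the study's methods, and each window was looked up in every other annotated transcript. The methods describe paired-end reads, and windows of a single read do not account for its mate. An exact copy outside the mitochondrial chromosome was found for 613 of 616 windows of mt-Co2, 610 of 613 of mt-Atp6 and 715 of 716 of mt-Co3. It was found for 628 of 1477 windows of mt-Co1, and for 0 of 1076 of mt-Cytb, 0 of 887 of mt-Rnr1 and 0 of 1514 of mt-Rnr2. The copied windows of mt-Co1 began at base 88 of the gene and lay in Gm13340 as well as Gm29216. Those of mt-Co2 lay in Gm13341 as well as Gm28661. Counts of Gm13340 and Gm13341 are not given here. For mt-Atp8 an exact copy was found for 0 of 136 windows, and only its last 43 bases were aligned to chromosome 1. By position alone, the rest of this gene would fall in a stretch there with no annotated transcript: the copies of mt-Co2 and mt-Atp6 are 233 bases apart there, as are the matching parts on the mitochondrial chromosome. The chromosome 1 sequence between them was not analysed here.

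mt-Co3 and mt-Atp8 had 0 counts in all 40 libraries. At 30653558 counts over the 20 hippocampal libraries and 33793436 over the 20 frontal cortical ones, 0 allows a level of up to 0.0979 and 0.0888 CPM (CPM, counts scaled to a common library total), respectively, which covers counting error alone. mt-Co2 had 13 counts, all in the pre-KD hippocampal library of donor 6. mt-Atp6 had 25 counts, all in the frontal cortex, of which 19 were in the pre-KD library of donor 1. Since 1 and 3 libraries held these counts, no fold change is given for mt-Co2 and mt-Atp6, and neither is counted among the transcripts tested below. Most of the 7 copies on this stretch of chromosome 1 took few counts as well: Gm28661 had 5 in hippocampal and 1 in frontal cortical libraries, Gm10925 23 and 1, Gm28437 4 and 4, and Gm29216 5 and 4. Of the complex I mRNAs, mt-Nd3 (274 of 280 windows copied) had 3 and 1 counts and mt-Nd4l (226 of 229) had 0 and 0, while mt-Nd4 (808 of 1310) had 735623 and 807898. Gm28438, the copy of mt-Nd3, was the exception among these 7, with 1092 and 856 counts. How the aligner or counter treated reads with several matches was not tested, and the low counts of these mRNAs are therefore not read as low expression.

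**Figure D1:**
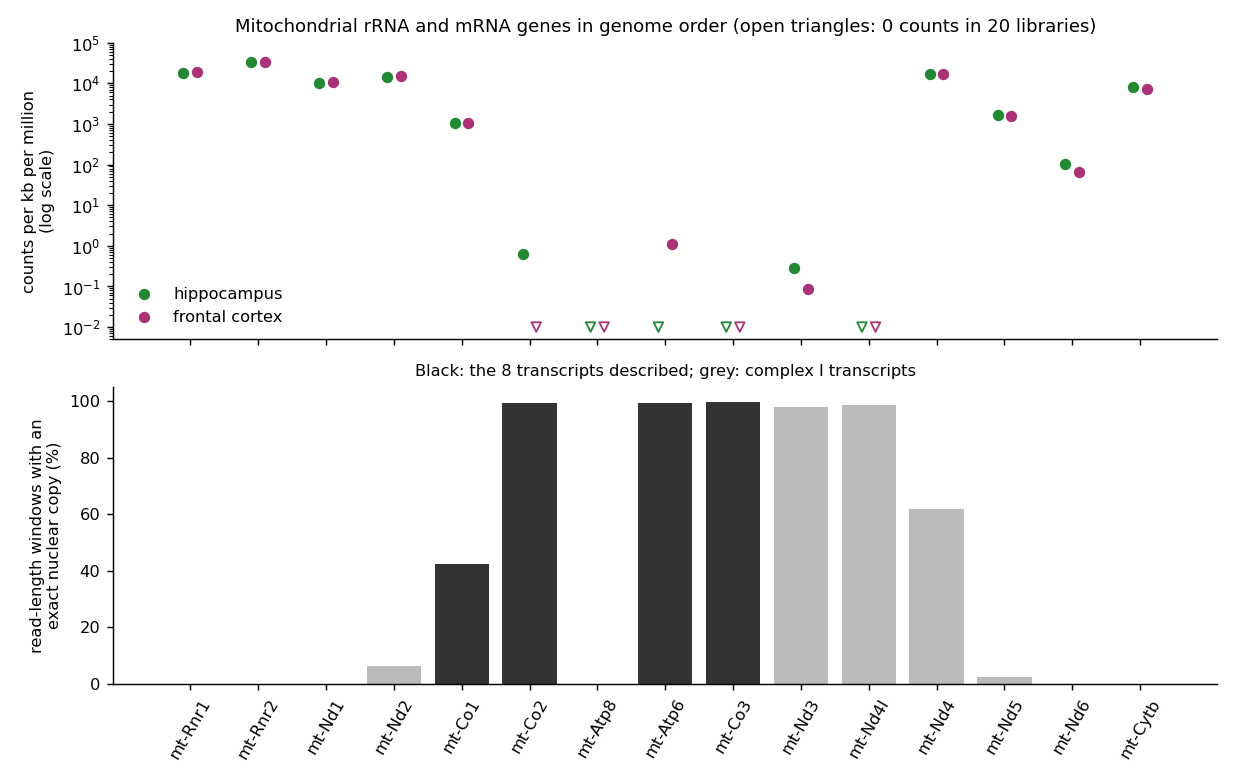
Upper panel: CPM per kilobase of gene (log axis) of the mitochondrial rRNA and mRNA genes in genome order, pooled over the 20 libraries of each region, with open triangles for 0 counts. Lower panel: percent of 69-base windows with an exact copy in a nuclear transcript; mt-Co2, mt-Atp6 and mt-Co3 had copies for at least 99.5% of windows and at most 25 counts in a region.

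The 4 measurable transcripts were among the most abundant rows of both tables. mt-Rnr2 ranked 2 by summed counts in both regions, after Gm42418, a locus known to collect reads of nuclear ribosomal RNA, and mt-Rnr1 ranked 4. Together the 8 transcripts took 7.99% ± 0.457 (SD, n = 20) of all counts in hippocampal and 8.04% ± 0.572 in frontal cortical libraries. mt-Rnr2 alone took 5.18% ± 0.316 in hippocampal and 5.24% ± 0.362 in frontal cortical libraries. Per kilobase of gene, mt-Rnr2 averaged 32440 ± 2169 CPM in the hippocampus, mt-Rnr1 17977 ± 1962, mt-Cytb 7883 ± 926 and mt-Co1 1060 ± 132. The frontal cortical values were 33452 ± 2249, 18924 ± 1529, 7410 ± 839 and 1054 ± 127. The order was the same in both regions, and neighbours in it did not overlap: the lowest mt-Rnr2 library (28751 CPM per kb) exceeded the highest mt-Rnr1 library (23480), both in the hippocampus. This scaling takes reads to come from the whole length of a gene, whereas the study names both a whole-transcript and a 3′-end library kit, and 42.5% of the windows of mt-Co1 have a nuclear copy. Within a library mt-Rnr2 had 3.01 ± 0.239 counts per count of mt-Rnr1 in hippocampal and 2.94 ± 0.172 in frontal cortical libraries.

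Depth, tissue and other abundant RNAs were checked across the libraries. Counted reads lay between 1140756 and 2095352 per library, and Gm42418 took between 8.63% and 18.02% of them. All 7 hippocampal markers were higher in the hippocampus and 4 passed the adjusted threshold, and of 7 cortical markers 6 were lower there, 3 of them past the threshold, and 1 was higher past it. Markers of the choroid plexus, summed and scaled to total counts alone, ranged from 532 to 4298 CPM in hippocampal libraries and from 6.68 to 569 in frontal cortical ones, and those of the striatum from 26.0 to 249 and from 358 to 821. These marker sums differed between regions and between libraries, and their part in the values below was not tested. In bulk samples, fewer mitochondria per cell, fewer cells rich in them and less RNA per mitochondrion cannot be told apart.

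The first comparison asked whether post-KD microbiota changed these transcripts in the hippocampus. Besides mt-Rnr2, mt-Co1, mt-Cytb and mt-Rnr1 could be tested, and 0 of these 3 passed the adjusted threshold. mt-Cytb, the electron-carrying core of complex III, ranged from 7803 to 9910 CPM pre-KD (median 8522) and from 7740 to 11205 post-KD (median 9607). The groups overlapped, and 5 pre-KD cohorts lay close together, between 7803 and 7935 CPM. Its log2 fold change was 0.13 ± 0.064 (SE; p = 0.0478, adjusted p = 0.485), and it was higher post-KD in 6 of 10 donors. The 10 within-donor ratios had a standard error of 0.085, and flipping their signs gave an exact permutation p of 0.170. mt-Co1, the catalytic subunit of complex IV, ranged from 1385 to 2124 CPM pre-KD (median 1556) and from 1355 to 1928 post-KD (median 1701), a log2 fold change of 0.067 ± 0.095 (adjusted p = 0.9998). That value was 0.030 without donor 3 and 0.14 without donor 9. mt-Rnr1 ranged from 15190 to 22718 CPM pre-KD (median 17301) and from 14806 to 19423 post-KD (median 17508), with a log2 fold change of -0.033 ± 0.056 (adjusted p = 0.9998). The highest pre-KD value belonged to donor 4, which also had the highest mt-Rnr2. Over all 17529 genes tested, 10.1% had an unadjusted p under 0.05 and 0.0057%, a single gene, passed after adjustment.

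In the frontal cortex mt-Co1 and mt-Cytb were higher post-KD in 9 of 10 donors each, but 0 of 3 transcripts tested (these and mt-Rnr1) passed the adjusted threshold. mt-Co1 ranged from 1238 to 1744 CPM pre-KD (median 1487) and from 1492 to 1985 post-KD (median 1707). The post-KD median lay close to the highest pre-KD library, and donor 10 alone went the other way. Its log2 fold change was 0.21 ± 0.076 (p = 0.00749, adjusted p = 0.142), and an exact permutation test flipping the signs of the 10 within-donor log2 ratios gave p = 0.00391 without adjustment. mt-Cytb ranged from 7000 to 9468 CPM pre-KD (median 7801) and from 7542 to 9736 post-KD (median 9119). Its log2 fold change was 0.15 ± 0.058 (p = 0.0116, adjusted p = 0.203), with an unadjusted exact permutation p of 0.0371. On shares of counts it was higher in 7 of 10 donors and the same test gave p = 0.104, whereas mt-Co1 was higher in 9 of 10 (exact permutation p = 0.00781). Adjusted over the 3 transcripts alone, not over all genes, these permutation p were 0.155 for mt-Cytb and 0.0234 for mt-Co1. The call of mt-Co1 thus depended on the test and on the set adjusted over. mt-Rnr1 ranged from 16249 to 20053 CPM pre-KD (median 17435) and from 15613 to 21541 post-KD (median 17977), a log2 fold change of 0.020 ± 0.049 (adjusted p = 0.998). Among all 17873 genes tested, 9.68% had an unadjusted p under 0.05 and 0.0056%, again a single gene, passed after adjustment. Blood markers, summed, ranged from 417 to 1116 CPM pre-KD and from 538 to 1376 post-KD in the same region. Of 3 tested, 2 had a positive fold change and 0 passed (Hba-a1, a haemoglobin chain, 0.49 ± 0.15, adjusted p = 0.122), and their part in these values was not tested.

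**Figure D2:**
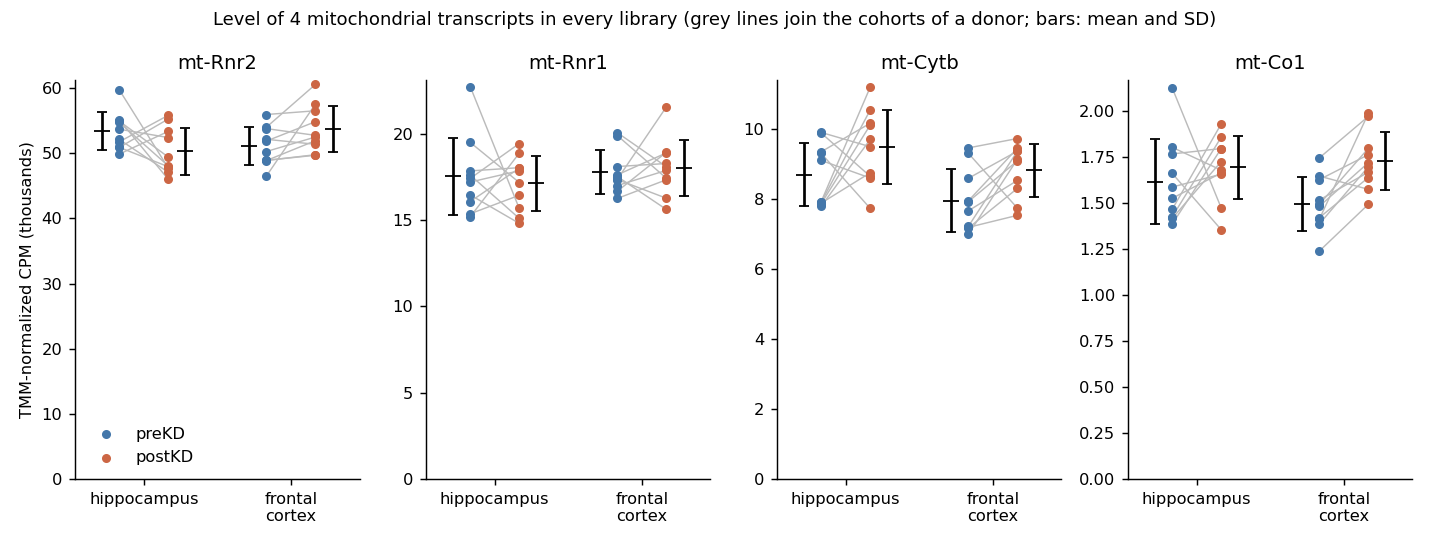
TMM-normalized CPM of mt-Rnr2, mt-Rnr1, mt-Cytb and mt-Co1 in each of 40 libraries, with grey lines joining the pre-KD and post-KD cohorts of a donor and bars for the mean and SD of 10 libraries. Pre-KD and post-KD libraries overlapped for all 4 transcripts in both regions.

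For mt-Rnr2 the 2 regions are given side by side as a description. In the hippocampus it ranged from 49852 to 59709 CPM pre-KD (median 52884) and from 45977 to 55798 post-KD (median 48722). In the frontal cortex it ranged from 46469 to 55916 CPM pre-KD (median 51046) and from 49675 to 60520 post-KD (median 52598). The ranges overlapped in each region, but 6 of 10 post-KD hippocampal libraries lay below the lowest pre-KD one, and 3 of 10 post-KD frontal cortical libraries lay above the highest pre-KD one. Within donors it was lower post-KD in 7 of 10 in the hippocampus (mean log2 ratio -0.087 ± 0.16, SD) and higher in 8 of 10 in the frontal cortex (0.072 ± 0.10). The fitted frontal cortical change was 0.073, and 0.047 without donor 1. The opposite combination, lower in the hippocampus and higher in the frontal cortex, occurred in 6 of 10 donors. As shares of all counts, without TMM, the hippocampal value went from 5.28% ± 0.343 to 5.08% ± 0.264 and the frontal cortical one from 5.11% ± 0.331 to 5.37% ± 0.362. The mean within-donor log2 ratio of shares was -0.056 ± 0.13 in the hippocampus, with 6 of 10 donors lower, and 0.070 ± 0.11 in the frontal cortex, with 7 of 10 higher.

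For the other transcripts the region-by-condition term was tested. The difference of the post-KD change, hippocampus minus frontal cortex, was -0.041 ± 0.041 (log2, adjusted p = 1) for mt-Rnr1, -0.13 ± 0.10 (adjusted p = 1; -0.081 without donor 9) for mt-Co1 and -0.022 ± 0.054 (adjusted p = 1) for mt-Cytb. Of these 3 transcripts, 0 passed, at either an unadjusted or an adjusted threshold of 0.05 (edgeR). For mt-Rnr2 the fitted difference was -0.15, and the within-donor difference had an SD of 0.17 over 10 donors, 8 of which lay below 0. Of 19422 genes, 2.22% had an unadjusted p under 0.05 in this fit and 0.0154%, or 3 genes, passed after adjustment. Gm42418 (-0.18 ± 0.018) and the complex I mRNA mt-Nd4 (0.16 ± 0.036, adjusted p = 0.0342), which rank 1 and 3 by counts in the hippocampus, were among those genes. Their standard errors in the fit were smaller than those of the 10 donors' own differences, 0.15 and 0.097, by 8.72 and 2.7 times, and exact permutation tests over donors gave p = 0.270 and 0.135. The fit thus understated the spread of such abundant rows, and limma on log2 CPM called 0 genes in this comparison and gave 824 an unadjusted p under 0.05.

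**Figure D3:**
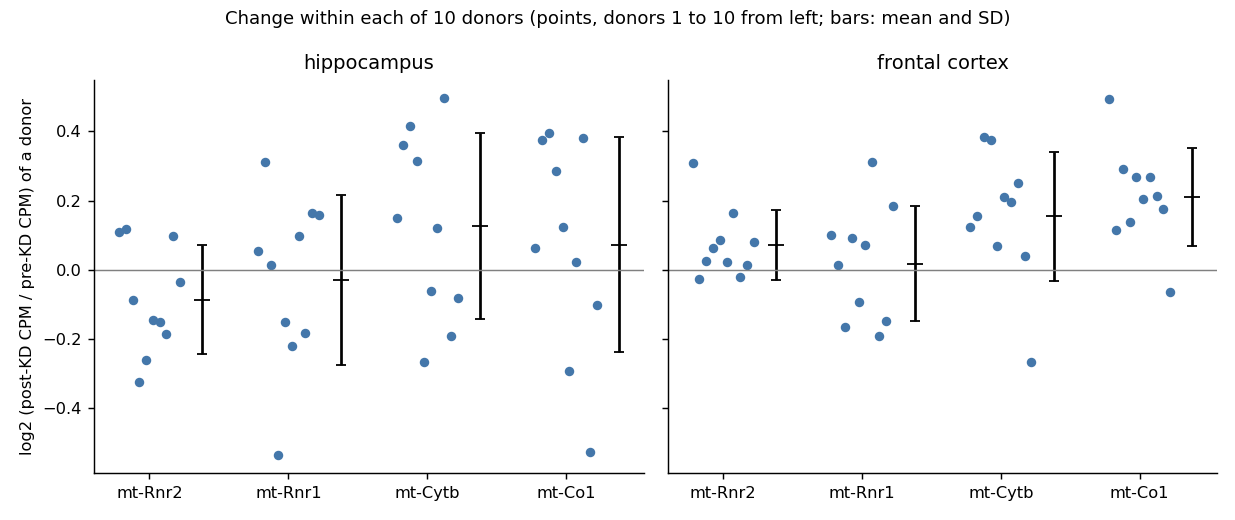
Log2 ratio of post-KD to pre-KD CPM in each of 10 donors, for 4 transcripts in the hippocampus (left) and the frontal cortex (right), with bars for the mean and SD. In the frontal cortex 9 of 10 donors lay above 0 for mt-Co1 and for mt-Cytb, and in the hippocampus 7 of 10 lay below 0 for mt-Rnr2.

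Hippocampus and frontal cortex of the same cohorts were then compared. In the fit with a term for each of 20 cohorts, 1 of the 4 measurable transcripts passed the adjusted threshold, against 2.85% of 19422 genes (10.9% at an unadjusted p under 0.05). That was mt-Rnr1, which averaged 17168 ± 1874 CPM in hippocampal libraries and 18072 ± 1460 in frontal cortical ones. Its log2 difference was -0.078 ± 0.022 (adjusted p = 0.0168), and it was lower in the hippocampus in 13 of 20 cohorts. The 20 cohort ratios themselves had a standard error of 0.043, which is 1.97 times that of the fit. A permutation test flipping their signs gave p = 0.0850, and limma an adjusted p of 0.468. Against the spread between cohorts, the difference of mt-Rnr1 was therefore not past the threshold. mt-Rnr2 (-0.044 ± 0.014, adjusted p = 0.0632) was lower in the hippocampus in 12 of 20 cohorts, with a standard error over cohorts of 0.030 and a sign-flip permutation p of 0.151. mt-Cytb (0.089 ± 0.028, adjusted p = 0.0575) was higher there in 15 of 20, with a sign-flip permutation p of 0.0266 before adjustment. mt-Co1 differed by 0.0082 ± 0.052 (adjusted p = 0.983). These sizes moved with the scaling: with RLE factors and with total counts the difference was -0.044 and -0.050 for mt-Rnr1 (adjusted p = 0.407 and 0.270), -0.011 and -0.017 for mt-Rnr2 (0.866 and 0.753), 0.042 and 0.036 for mt-Co1 (0.856 and 0.882) and 0.12 with both for mt-Cytb (0.000606 and 0.00145). With TMM, the median log2 difference over all genes tested was -0.168, and -0.056 over the more abundant ones. The value of mt-Rnr2 lay above both medians and that of mt-Rnr1 between them.

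**Figure D4:**
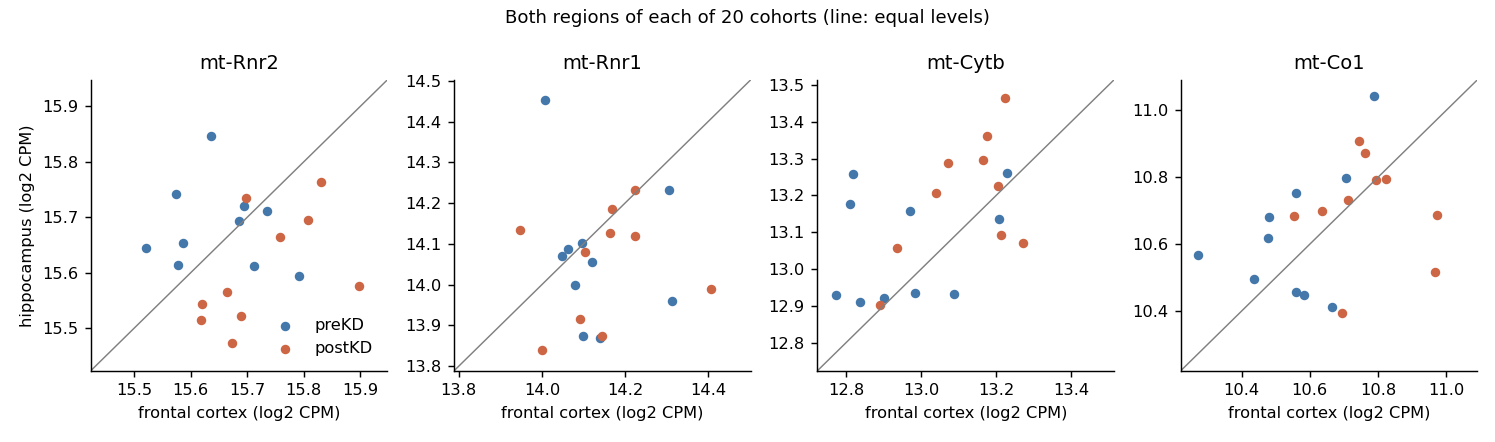
Log2 CPM in the hippocampus against log2 CPM in the frontal cortex of the same cohort, for 20 cohorts and 4 transcripts, with a line at equal levels. For mt-Cytb 15 of 20 cohorts lay above the line, and for mt-Rnr1 13 of 20 lay below it.

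Whether a cohort with a high level in one region also had one in the other was asked for the 4 measurable transcripts. Across 20 cohorts the hippocampal and frontal cortical levels of mt-Cytb gave r = 0.505 and rho = 0.472 (permutation p = 0.0240 and 0.0376, adjusted over the 4 relations 0.0962 and 0.0755). Without the 2 cohorts farthest from the hippocampal median r was 0.413, and after subtraction of the condition means it was 0.384. For mt-Co1 r was 0.334 and rho 0.471 (permutation p = 0.150 and 0.0377, adjusted 0.299 and 0.0755). For mt-Rnr1 r was -0.019 and rho 0.087 (permutation p = 0.935 and 0.714). For mt-Rnr2, selected on opposite changes in the regions, r is a description, 0.051 over all cohorts and 0.263 after subtraction of the condition means. The relations of mt-Cytb, mt-Co1 and mt-Rnr1 did not pass after adjustment.

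Within a region, the level of mt-Rnr2 was set against 4 other measures of the same library, giving 8 relations. Because mt-Rnr2 was selected on its post-KD change, r over all libraries is a description, and p-values are given only after subtraction of the condition means. Against mt-Rnr1, r was 0.661 (rho = 0.606) in hippocampal and 0.668 (rho = 0.605) in frontal cortical libraries, and 0.420 and 0.448 without the 2 libraries farthest from the median of mt-Rnr1. With condition means subtracted, r was 0.694 in hippocampal and 0.695 in frontal cortical libraries (rho = 0.671 and 0.594, permutation p for r of 0.00071 and 0.00061, adjusted 0.00284 for both, adjusted for rho 0.0137 and 0.0272). Without the 2 farthest libraries these were 0.541 and 0.476 (permutation p = 0.0217 and 0.0448). On shares of counts in place of TMM-normalized values, however, the hippocampal r was 0.355, and -0.0031 without the 2 farthest libraries, while the frontal cortical r was 0.677 and 0.464. Against the summed mRNAs among the 8, r was -0.313 in hippocampal and 0.527 in frontal cortical libraries, but 0.345 and 0.744 on shares, so the hippocampal sign turned with the scaling. With condition means subtracted, these relations gave r = -0.170 and 0.409 (rho = -0.122 and 0.322, adjusted permutation p for r of 0.630 and 0.148) and did not pass. Against Gm42418 r was 0.443 in hippocampal and 0.145 in frontal cortical libraries, but -0.349 and -0.473 on shares. Against total counts r was 0.464 and 0.154, and -0.044 and 0.156 on shares. As the same library supplies both values, a shared error of scaling moves them together.

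**Figure D5:**
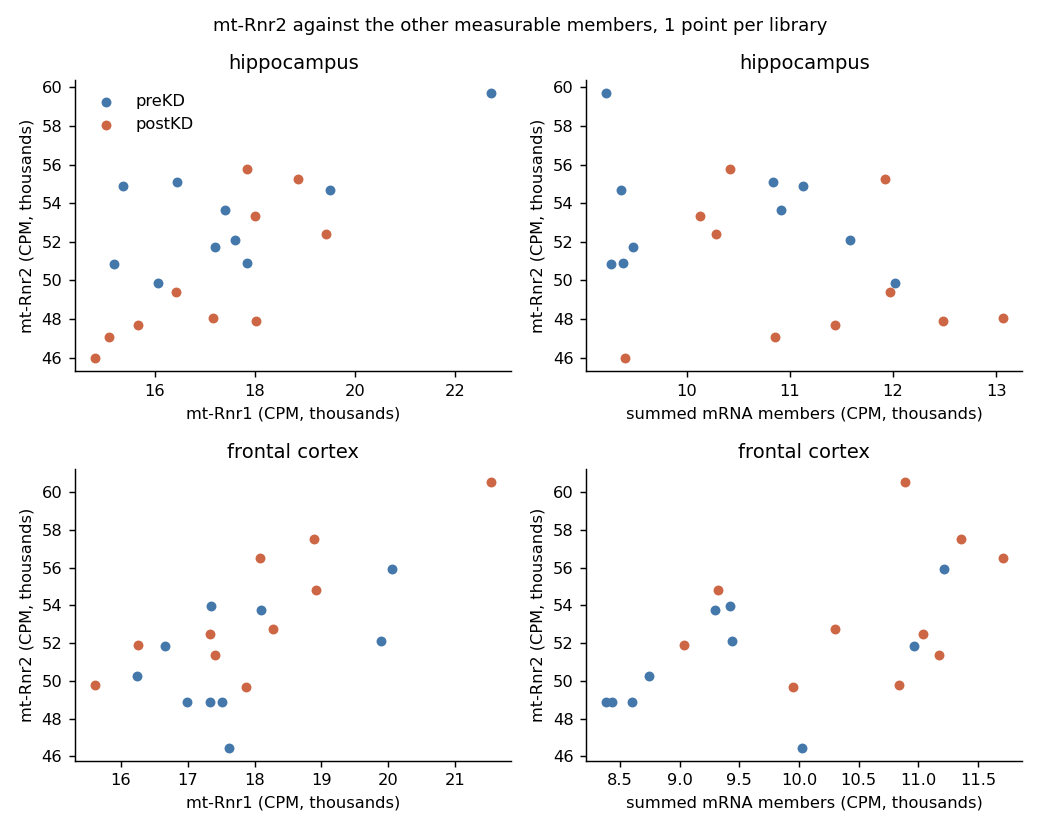
CPM of mt-Rnr2 against that of mt-Rnr1 (left) and of the summed mRNAs mt-Co1, mt-Co2, mt-Co3, mt-Cytb, mt-Atp6 and mt-Atp8 (right), 1 point per library, in the hippocampus (top) and the frontal cortex (bottom). In the hippocampus the library with the most mt-Rnr1 (22718 CPM) also had the most mt-Rnr2 (59709 CPM).

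Among nuclear genes averaging at least 50 counts, the 5 whose log2 CPM was most like that of mt-Rnr2 over 20 hippocampal libraries were Kctd2, Gnai2, Ino80b, Arid4a and Plxna2 (r = 0.726 to 0.684, of 4636 genes ranked). For the frontal cortex they were Cpsf3, Rfx7, Fads1, Minos1 and Tshz3 (r = 0.722 to 0.646, of 4956). The summed mRNAs were most like Taf1d, Rps16, Gpm6b, Rab1a and Tubb2a in the hippocampus (r = 0.826 to 0.762). Their closest genes in the frontal cortex were Cox7c and Cox8a, nuclear subunits of complex IV, then Itm2c, Dlg2 and the pseudogene Gm12892 (r = 0.801 to 0.722). The summed mRNAs ran against Gm42418 in both regions (r = -0.793 in hippocampal and -0.447 in frontal cortical libraries), so libraries with more counts on that locus had fewer on these mRNAs. These are descriptions of the libraries, which share depth and scaling, and carry no test.

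The nuclear partners of these transcripts were tested in the same fits. Of 9 nuclear subunits of complex III, 0 passed the adjusted threshold in either region, and Uqcrb, a small subunit, had the smallest p in the hippocampus (0.48 ± 0.26, adjusted p = 0.611). Of 11 subunits of complex IV, 0 passed, 9 had a positive fold change in each region, and the median was 0.083 in hippocampal and 0.060 in frontal cortical libraries, against -0.0076 and 0.0087 over all genes tested. Cox5b in the hippocampus (0.38 ± 0.17, adjusted p = 0.383) and Cox7c in the frontal cortex (0.28 ± 0.13, adjusted p = 0.457) came first. Of 17 subunits of complex V, 0 passed, and Atp5o, part of the stalk that joins the motor to the catalytic head, came first in both regions, at -0.40 ± 0.16 in the hippocampus (adjusted p = 0.224) and 0.25 ± 0.13 in the frontal cortex (adjusted p = 0.495). For Atp5o the difference between the regions was -0.66 ± 0.21 (p = 0.00186, adjusted p = 1). As Atp5o was picked from 17 subunits on its changes in both regions, that unadjusted p is not one of a gene chosen beforehand.

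Of 28 genes for mitochondrial transcription and RNA processing, 0 passed in either region, Polrmt, the mitochondrial RNA polymerase, having the smallest p in the hippocampus (-1.47 ± 0.82, adjusted p = 0.641) and Ssbp1, which coats single-stranded mitochondrial DNA, in the frontal cortex (1.11 ± 0.52, adjusted p = 0.428). Of 77 and 76 tested mitochondrial ribosomal protein genes, whose products assemble on mt-Rnr1 and mt-Rnr2, 0 passed in the hippocampus or the frontal cortex. Their medians were -0.10 and 0.051, with 35 of 77 and 42 of 76 positive. Of 5 tested complex I mRNAs of the mitochondrial chromosome, 0 passed in either region, and mt-Nd1 in the frontal cortex (0.18 ± 0.052, adjusted p = 0.122) had the largest positive fold change there. Of 15 tested mitochondrial tRNAs, 0 passed, with 12 negative in the hippocampus (median -0.19) and 13 in the frontal cortex (median -0.17). Between regions, 2 of 5 complex I mRNAs passed in the fit, both lower in the hippocampus, mt-Nd2 (-0.11 ± 0.023, adjusted p = 0.000218) and mt-Nd1 (-0.10 ± 0.027, adjusted p = 0.00778). The median over all genes tested in that fit was -0.168, and -0.056 over the more abundant ones. mt-Nd1 was lower in 17 of 20 cohorts and mt-Nd2 in 13 of 20, where the sign-flip permutation test gave unadjusted p = 0.00062 and 0.0373. The standard error of mt-Nd2 over the cohorts was 0.048, or 2.10 times that of the fit. In complex IV, Cox7c (0.34 ± 0.094, adjusted p = 0.0140) was higher in the hippocampus and Cox4i1 (-0.30 ± 0.087, adjusted p = 0.0265) lower, with unadjusted sign-flip permutation p of 0.0159 and 0.00242 and, for Cox7c, a standard error of 0.13 over the cohorts, whereas 0 subunits of complexes III and V passed.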

How the data were processed

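RNA was measured in pooled hippocampus or frontal cortex of 20 cohorts. The authors deposited 1 table of raw, unnormalized read counts per region. According to the methods and the submitters' processing notes, reads were checked with FastQC 0.11.5, trimmed, aligned to mm10 with STAR 2.5.2a, handled with SAMtools 1.3 and counted per gene with HTSeq 0.6.0. The handling of reads with several matches and the annotation release are not given in the sources used here. By its defaults HTSeq leaves out reads aligned to several places, which lowers the counts of genes with copies. Whether those defaults were used is not stated. Of 47643 identifiers, 47224 were matched to GENCODE M21 and 419 were not. All 40 columns were used, and no 2 libraries were identical.

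Groups came from the labels. Genes with at least 10 counts summed over a fit were tested with edgeR 4.0.16 (TMM, quasi-likelihood test, Benjamini-Hochberg adjustment over all genes tested, R 4.3.3), post-KD against pre-KD within a region, and with a term for each cohort for region and for region by condition. CPM are TMM-normalized, SD is over libraries and SE is that of the fit. The threshold was an adjusted p of 0.05. Permutations were exact or used 100000 resamples, and all tests were two-sided. Alternatives were DESeq2 1.42.0, no filter, filterByExpr, RLE factors, TMM without mitochondrial genes and Gm42418, total counts, shares of counts, the replicate block and leaving out each donor. limma 3.58.1 on log2 CPM (prior count 2) was added after the data were seen, as were the sign-flip tests of CPM ratios. Copies were sought with exact windows and BLAST 2.17.0. The post-KD fit in the hippocampus and the fit between regions were also run on simulated counts. Those counts were drawn with the fits' own dispersions and without differences between cohorts, so they could not show standard errors that were too small. Python 3.11.15, numpy 2.4.6, pandas 2.3.3, scipy 1.17.1 and matplotlib 3.10.9 were used.

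The donor links a pre-KD with a post-KD cohort by design, but after removal of condition means the correlation between a donor's 2 libraries lay between -0.056 and 0.032, and 0 of 10 pairs per region exceeded 0.1. Genes are named by rule: the 8 transcripts, the listed nuclear copies on chromosome 1, Gm42418, the 5 most similar nuclear genes, and from each list up to 3 genes past the threshold or else up to 2 with the smallest p, of which the leading ones are given. Gm13340 and Gm13341 were not on that list and are named because the window search found them. Members and lists were chosen with earlier results of these data known. For the most abundant genes, standard errors of the fits could lie below the spread between cohorts, above all with a cohort term, so their p-values can be too small. Confidence limits and limits for 0 counts cover counting error only.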

Additional observations from a re-analysis of the deposited data

Results flagged for a closer look

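mt-Co2 had 13 counts in the hippocampus, all in 1 library of 20, and mt-Atp6 had 25 counts in the frontal cortex, in 3 libraries of 20. Both stand out as counts above the limit that a count of 0 allows, in genes that the comparisons could not use. No library stood apart from the rest of its group for mt-Rnr1, mt-Rnr2, mt-Co1 or mt-Cytb in the 16 groups of 10 checked by Dixon's test.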

How the results depend on the processing

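Post-KD in the hippocampus, 0 transcripts passed under every alternative but no filter, which gave 1, mt-Co2, on the 13 counts of a single library, which is no evidence of a change. In the frontal cortex, 1 passed on shares of counts with the exact sign-flip permutation test within donors, mt-Co1 (log2 0.21), adjusted over the few transcripts tested there, and 0 in the others. For the difference of the post-KD change between regions, 0 passed under every alternative run, which did not include shares of counts. Between regions, where mt-Rnr1 passed alone, DESeq2, filterByExpr and limma gave 0, no filter 3 and TMM without mitochondrial genes and Gm42418 2. Leaving out each donor gave 0 to 3, with 0 without donor 2, 5, 7 or 9, and RLE factors and total counts gave 1, mt-Cytb in place of mt-Rnr1. Without the replicate block the count was 2, mt-Co2 and mt-Atp6, whose few counts lie in 1 region each and in 1 and 3 libraries, so that neither is a result. With the replicate block no transcript's call changed in the post-KD comparisons. The post-KD change of mt-Co1 in the hippocampus was 0.030 to 0.14 leaving out donors. That of mt-Rnr1 was 0.0023 with total counts, 0.0014 on shares and -0.061 to 0.028 leaving out donors (0.028 without donor 4), and in the frontal cortex -0.018 to 0.040 (-0.018 without donor 7). The difference between regions for mt-Cytb was 0.0046 with total counts and -0.061 to 0.0039 leaving out donors (0.0039 without donor 5), and for mt-Rnr1 -0.092 to 0.023 (0.023 without donor 4) and -0.014 with total counts. Leaving out donors, the region difference of mt-Co1 was -0.016 to 0.023, below 0 without donor 3, 5, 7 or 10. With DESeq2 it was 0.042 for mt-Co1, -0.044 for mt-Rnr1 and -0.011 for mt-Rnr2. On shares of counts, r between regions for mt-Rnr1 was 0.084, and r of mt-Rnr2 in the hippocampus was 0.36 with mt-Rnr1, -0.35 with Gm42418, -0.044 with total counts and 0.35 with the summed mRNAs, and in the frontal cortex -0.47 with Gm42418. With condition means subtracted, r with the summed mRNAs in the frontal cortex was 0.41. Without Gm42418 in the total, the 8 transcripts took 9.32% and 9.11% in the hippocampus and 8.99% and 9.49% in the frontal cortex, pre-KD and post-KD. Over all genes, calls went from 1 to 1291 without a filter in the hippocampus and to 0 with DESeq2, filterByExpr, limma, the replicate block or without donor 4 or 9. In the frontal cortex they went from 1 to 2 with DESeq2, 3 with the replicate block and 0 with limma. For the difference they went from 3 to 0 with DESeq2 or limma, 2 with filterByExpr and 348 without the replicate block, and between regions from 554 to 1026 with DESeq2 and 1935 without the replicate block. Where no value shows it, the cause was not tested.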
